A study of Homo sapiens with 12 samples.

Results

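The effect of losing SCC4, the protein made by the gene MAU2, was examined in G1 cells of eHAP1, a haploid human line derived from a chronic myeloid leukaemia line. Single cells of 2 genotypes, WT and SCC4 KO, were profiled by LAST-seq, which amplifies the RNA linearly and counts molecules by UMI, a random tag on each captured RNA. All columns of the WT table and of the SCC4 KO table were used, which gave 301 cells (148 WT and 153 SCC4 KO) in 2 of the 12 samples of the series. UMIs were summed over the cells of each genotype in each of 2 batches, named by the prefix of the cell names, and divided by the total UMIs of that sum, and a level is given as CPM, the UMIs of a gene per 1000000 UMIs of the sum. Of the 23939 genes in either table, the 9793 that averaged 1 UMI or more per cell in WT or in SCC4 KO were kept.

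SCC4 KO cells came from WT cells that received Cas9 protein with a guide RNA against SCC4 and were expanded from single sorted cells. For its noise study, the paper describes cells taken from a clonal population grown out of a single cell. It does not state the number of clones per genotype. No label ties a cell to a clone, so effects of the genotype and of a clone cannot be told apart. Cells of both genotypes were kept haploid with 10-Deacetylbaccatin-III and were sorted as live G1 cells by Hoechst33342 and Zombie Green staining. The number of UMIs per cell was between 18022 and 926415, and the 4 sums held 7370620 (WT batch 1), 12301326 (WT batch 2), 6434247 (SCC4 KO batch 1) and 11678465 UMIs (SCC4 KO batch 2). The same set of 78 cell barcodes served both genotypes, with 72 barcodes shared by WT and SCC4 KO in batch 1 and 73 in batch 2. Each genotype was deposited as 1 sample, so the calls below rest on size alone, and single cells did not stand in for replicates. Tests on the 4 sums were run only as alternatives, and their p-values do not measure replicate error.

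Cohesin is a ring of SMC1A, SMC3, RAD21 and a STAG subunit that holds sister chromatids together and extrudes loops of DNA. NIPBL and MAU2 form the complex that loads it onto chromatin, while WAPL and the PDS5 proteins take part in its release. CTCF stops loops at the borders of topologically associating domains. The guide RNA is shown with its genomic site because it defines the knockout. It matched 1 place in the genome (GRCh38), chr19:19338850-19338869 on the plus strand, in the coding part of exon 5 of the 19 exons of the canonical MAU2 transcript. In the line below, the PAM that Cas9 needs next to the site is in capitals.
SCC4 guide and PAM: gcacacgcttgagaaggaccTGG

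MAU2 was lower in SCC4 KO cells in both batches. The level was 44.2 CPM in WT batch 1 (326 UMIs, exact 95% Poisson interval 39.6 to 49.3 CPM) and 41.2 in WT batch 2 (507 UMIs). In SCC4 KO cells it was 9.17 in batch 1 (59 UMIs, 6.98 to 11.8) and 14.5 in batch 2 (169 UMIs, 12.4 to 16.8). The ratio of SCC4 KO to WT was 0.207 in batch 1 (exact 95% interval 0.154 to 0.274) and 0.351 in batch 2 (0.293 to 0.419), and the intervals cover counting error only. A MAU2 UMI was found in 97.3% of 73 WT cells of batch 1 (exact binomial interval 90.5 to 99.7) and 94.7% of 75 WT cells of batch 2 (86.9 to 98.5). In SCC4 KO cells the share was 42.9% of 77 in batch 1 (31.6 to 54.6) and 92.1% of 76 in batch 2 (83.6 to 97.0). These shares depend on depth, and the SCC4 KO cells had medians of 81789 UMIs in batch 1 and 152433 in batch 2. When each cell was thinned to 40000 UMIs, which left out 1 WT cell, the shares were 89.0% and 81.1% in WT. In SCC4 KO cells they were 33.8% (23.4 to 45.4) and 53.9% (42.1 to 65.5), and the intervals of these thinned shares overlapped. The CPM intervals of the SCC4 KO batches, which are scaled to total UMIs, did not overlap, nor did those of the ratio. The intervals of the shares describe the cells of 1 batch and are no replicate error of a genotype. UMIs were counted over the whole gene, so they measure how much MAU2 RNA remained and do not show the edited allele. The paper checked the knockout by other means, PCR genotyping and a Western blot for the SCC4 protein. The BCR and ABL1 genes, whose fusion is carried by the parental leukaemia line, were read in both genotypes, with BCR at 6.92 and 5.61 CPM in WT and 8.39 and 7.62 in SCC4 KO cells. The 8 blood lineage genes together held 2.28 to 6.99 CPM in the 4 sums, and 6 of them were at 0 in WT cells and 5 in SCC4 KO cells. The wider list of 16 blood genes held 73.5 and 58.5 CPM in WT and 47.1 and 51.3 in SCC4 KO cells, with 2 kept and 1 of them called lower. That gene, HBA1, a haemoglobin chain, was at 42.2 and 38.9 CPM in WT and 15.2 and 15.4 in SCC4 KO cells.

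The agreement of the 2 batches was examined before the genes, since a shift alike in both would otherwise be read as a repeat. Counting noise alone gives a median of 0.455 for the squared difference of 2 sums divided by their counting variance. For genes with 1000 to 3000 UMIs, this median was 0.147 between the WT batches and 0.215 between the SCC4 KO batches, and for genes with 3000 to 10000 UMIs it was 0.237 and 0.0328. Alternate cells within a batch gave 0.590 to 0.636 and 0.640 to 0.910 in the same ranges, and 2 LAST-seq libraries of the kidney line HEK293T gave 3.98 and 7.04. Well-expressed genes thus differed less between the batches of a genotype than counting allows, while genes with 100 to 300 UMIs differed more (2.61 in WT and 1.60 in SCC4 KO). The paper's methods name a removal of batch effects by ComBat-seq, and whether the deposited UMIs precede or follow it is not stated. The 2 batches were therefore read as 1 sample per genotype, and a like shift in both is no independent repeat.

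**Figure D1:**
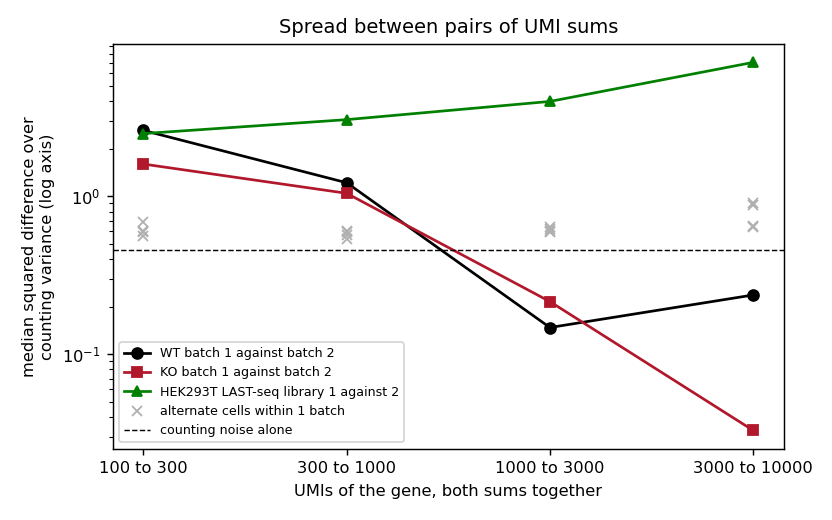
The squared difference between 2 UMI sums over its counting variance (median over genes, log axis) is plotted by the gene's UMIs in both sums. Above 1000 UMIs the WT batches (black) and SCC4 KO batches (red) lie under the dashed line of counting noise at 0.455, while alternate cells within a batch (crosses) and 2 HEK293T libraries (green) lie above it.

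A gene was called higher or lower in SCC4 KO cells when its scaled sum, with 0.5 UMI added, was past 1.5-fold in the same direction in both batches. Of the 9793 genes, 1100 (11.2%) were higher and 954 (9.74%) were lower, and 68 were past 1.5-fold in opposite directions. At 2-fold, 364 were higher and 357 lower. Batch 1 alone gave 1536 higher and 1698 lower, and batch 2 alone gave 1762 and 1269. The median log2 ratio over all kept genes was 0.01 in batch 1 and 0.06 in batch 2. For scale, among genes with at least 200 UMIs in each sum, 21.3% of 7444 were past 1.5-fold between SCC4 KO and WT with both batches summed, beside 3.80% of 999 between the 2 HEK293T libraries, which hold 10 cells each. Over 10 cells this cut keeps only genes of a higher level per cell, so the shares are not matched for level. The HEK293T libraries also carried different spike-in mixes. Protein-coding genes made up 86.9% of kept genes, 77.5% of those higher and 84.7% of those lower. Processed pseudogenes, whose reads can come from their parent genes, were higher in 20.8% and lower in 7.04% of 710 cases.

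**Figure D2:**
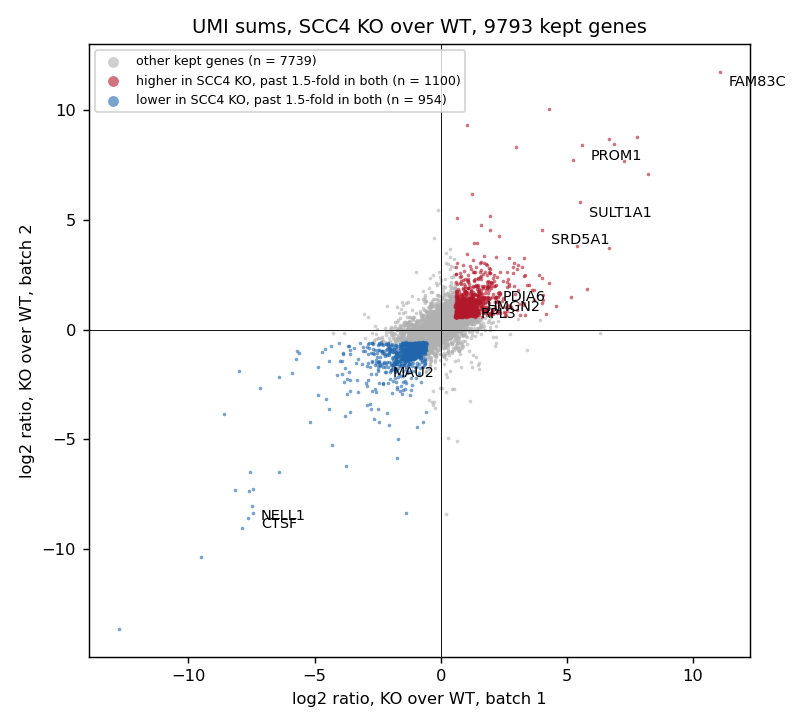
Each point is 1 of 9793 kept genes, with the log2 ratio of SCC4 KO over WT UMI sums in batch 1 on the x axis and in batch 2 on the y axis. The 1100 genes called higher are red, the 954 called lower are blue, and MAU2 lies at -2.26 and -1.51.

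Of the 12 largest rises by the ratio with 0.5 UMI added, 7 were at genes with no UMI in WT cells. These genes were kept only through their level in SCC4 KO cells, so they had to differ, and their number says nothing about the genotype. FAM83C, a casein kinase 1 binding family member, was at 0 UMIs in WT and at 146 and 141 CPM in SCC4 KO cells, at least 359-fold and 579-fold higher against a floor of 3 UMIs per batch. NEFL, the light neurofilament chain of neurons, was at 0 in WT and at 7.93 and 14.5 CPM in SCC4 KO cells, at least 19.5-fold and 59.3-fold higher. C2orf88 was at least 25.6-fold and 34.4-fold higher, and PTOV1-AS1, an antisense RNA, at least 16.8-fold and 68.5-fold. VAT1L was at 0 in WT but unequal between the SCC4 KO batches, at 1.24 and 44.3 CPM. The lncRNA ENSG00000266680 was at 20.4 and 5.48 CPM in SCC4 KO cells and at 0 in WT. The pseudogene RFTN1P1, annotated on chromosome Y, was at least 36.3-fold and 74.1-fold higher, and the origin of its UMIs was not tested.

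Other large rises started from a level that was read in WT cells. SULT1A1, a phenol sulfotransferase, was at 27.0 and 21.7 CPM in WT and at 1243 and 1228 in SCC4 KO cells, which made it 46.0-fold and 56.6-fold (exact interval 50.1 to 64.1) higher. SRD5A1, a steroid 5-alpha reductase, was at 19.4 and 14.7 in WT and at 313 and 347 in SCC4 KO cells, 16.2-fold (13.6 to 19.3) and 23.6-fold (20.3 to 27.5) higher. PROM1, the membrane protein CD133, rested on 10 and 2 UMIs in WT and reached 69.0 and 68.8 CPM in SCC4 KO cells, with ratios of 50.9 (27.4 to 107) and 423 (117 to 3502). LINC01608 rested on 7 and 2 UMIs in WT, and was at 38.9 and 42.7 CPM in SCC4 KO cells. EIF1B-AS1 was at 48.5 and 5.05 CPM in SCC4 KO cells and at 1.09 and 0.325 in WT. The levels of the 2 SCC4 KO batches were close for SULT1A1, SRD5A1, PROM1 and LINC01608, and differed for EIF1B-AS1. The rises were ranked by the smaller batch ratio and the batches are no independent repeat, so this closeness supports nothing further.

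Among the 12 largest falls, 9 had no UMI in SCC4 KO cells in either batch. The processed pseudogene ENSG00000256399 was at 541 and 555 CPM in WT cells, at least 1159-fold and 2160-fold lower in SCC4 KO cells. NELL1, a secreted protein of bone formation, was at 13.8 and 11.2 CPM in WT, and KLRF1, a receptor of natural killer cells, was at 22.1 and 6.91. GLIPR1-AS1 (18.2 and 23.0), COA6-AS1 (15.3 and 16.7) and the pseudogene RAET1K (14.9 and 6.99) were also absent from SCC4 KO cells, as were the unnamed genes ENSG00000279366, ENSG00000228697 and ENSG00000286850. CTSF, a lysosomal protease, was at 41.0 and 42.8 in WT and left 1 UMI in each SCC4 KO batch. SRL, a calcium-binding protein of the sarcoplasmic reticulum, was at 19.5 and 11.5 in WT and also left 1 UMI in each. The lncRNA ENSG00000269504 was at 272 and 253 in WT and at 13.7 and 6.42 in SCC4 KO cells. Since a gene was kept when either genotype reached the minimum level, such genes had to differ, and their number says nothing about the genotype.

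In the cohesin list, 14 of 20 members were kept, of which 4 were lower and 0 higher, beside 9.74% lower and 11.2% higher among all kept genes, with medians of -0.33 and -0.30 on the log2 scale. MAU2 itself is 1 of the 4. SGO1, the shugoshin that protects cohesin at centromeres, was at 18.7 and 28.0 CPM in WT and at 6.68 and 4.11 in SCC4 KO cells. PDS5A was at 114 and 118 in WT and 60.1 and 60.5 in SCC4 KO cells, a log2 ratio of -0.93 and -0.96. CDCA5, or sororin, which keeps WAPL away from replicated chromatids, was at 42.1 and 39.6 in WT and 26.3 and 24.1 in SCC4 KO cells. The ring subunits did not reach 1.5-fold, with log2 ratios of -0.41 and -0.55 for SMC3, -0.21 and -0.24 for RAD21, -0.17 and -0.21 for SMC1A and -0.01 in both for STAG2. NIPBL, the partner of MAU2, was at 30.4 and 39.8 in WT and at 36.7 and 29.6 in SCC4 KO cells, so its log2 ratio of 0.27 in batch 1 and -0.43 in batch 2 had no common direction. CTCF was near equal, at 0.06 and 0.09. In the related condensin and SMC5/6 list, SMC4 (-0.71 and -0.77) and SMC5 (-1.77 and -0.87) were lower, and NSMCE1 (0.77 and 0.76) and SLF2 (1.19 and 0.70) higher, of 14 kept, near the shares among all kept genes.

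**Figure D3:**
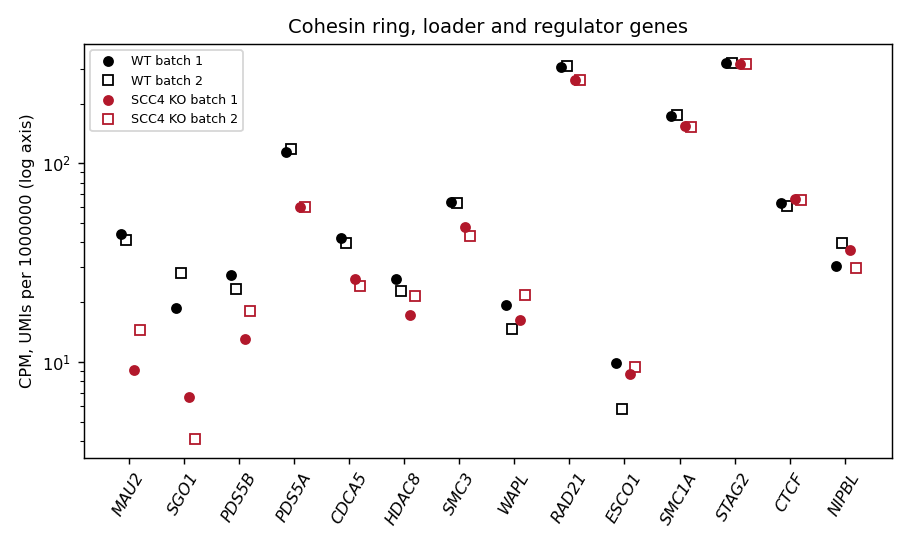
CPM (log axis) of the 14 kept cohesin genes are shown in each of the 4 sums, with WT in black, SCC4 KO in red, batch 1 filled and batch 2 open. MAU2, SGO1, PDS5A and CDCA5 lie lower in both SCC4 KO batches than in both WT batches, while NIPBL overlaps.

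Gene groups were then compared by the median log2 ratio of their kept members. Of 56 lists with at least 5 kept members, 12 had a median past 0.2 in the same direction in both batches. The counts below are read beside the 11.2% higher and 9.74% lower among all kept genes, and no list was tested.

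**Figure D4:**
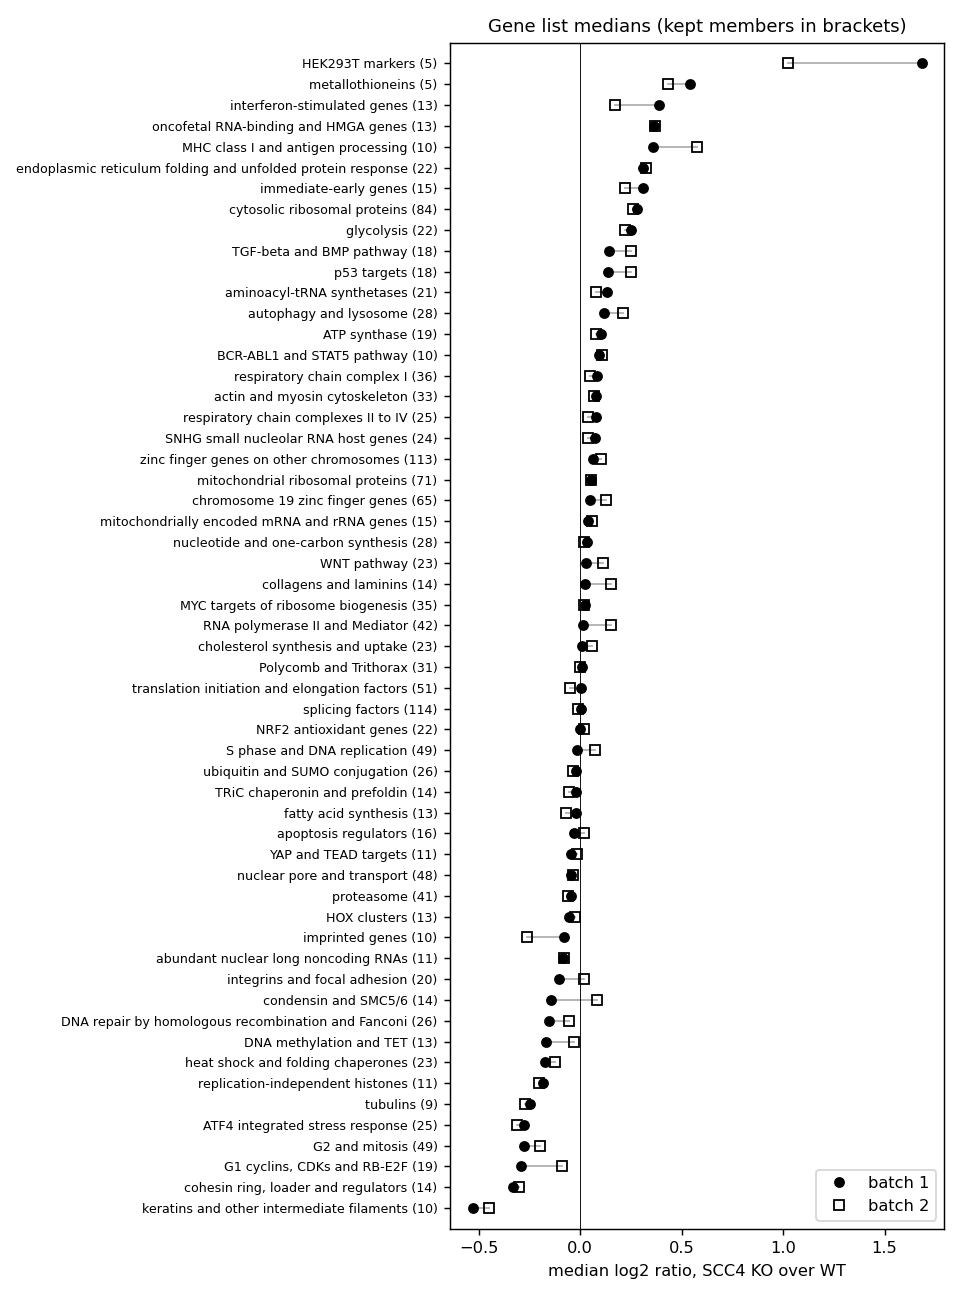
The median log2 ratio of SCC4 KO over WT is shown for 56 gene lists, with batch 1 as filled circles, batch 2 as open squares and the number of kept members in brackets. Metallothionein genes lie at 0.54 and 0.43, and intermediate filament genes at -0.53 and -0.45.

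Ribosomal protein genes, which encode the parts of the cytosolic ribosome, had positive medians. The median of the 84 kept of 88 was 0.28 and 0.26, with 12 higher and 0 lower, and they held 9.22% and 9.44% of all UMIs in WT and 10.6% and 10.7% in SCC4 KO cells. RPL3 was at 582 and 595 CPM in WT and at 1353 and 1364 in SCC4 KO cells, log2 ratios of 1.22 and 1.20. RPS9 (0.90 and 0.96), RPL36 (0.86 and 0.84) and RPL35 (0.85 and 0.82) followed. Members varied, and RPL27 was at -0.51 and -0.54. Mitochondrial ribosomal proteins had medians of 0.05 in both batches, translation initiation and elongation factors of 0.01 and -0.05, and MYC targets of ribosome biogenesis of 0.02 in both. Mitochondrially encoded genes held 20.04% and 20.3% of UMIs in WT and 20.1% and 20.3% in SCC4 KO cells, with 0 of 15 past 1.5-fold, and ranged from MT-ATP8 at -0.28 and -0.29 to MT-CO2 at 0.51 and 0.50.

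Genes of protein folding in the endoplasmic reticulum had medians of 0.31 and 0.33, with 3 of 22 higher and 0 lower. PDIA6, a disulfide isomerase, was at 3.66 and 3.98 CPM in WT and 16.0 and 15.8 in SCC4 KO cells. DERL2 (0.70 and 0.89), which helps export misfolded proteins, and DNAJC3 (0.82 and 0.64), a co-chaperone, were the others. The main chaperone HSPA5 was at 0.11 in both batches, and HSP90B1 was at -0.26 and -0.29. The list of heat shock and folding chaperones, which is not limited to the cytosol, had medians of the opposite sign, -0.17 and -0.13. Of its 23 kept members, 2 were higher and 3 lower, near the shares among all kept genes. HSPA1A was at -0.78 and -0.81 and HSP90AA1 at -0.60 and -0.64, while the mitochondrial HSPD1 was at 0.67 and 0.66.

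The promoters of these genes were searched for the ER stress element, CCAAT followed after 9 bases of any kind by CCACG, on both strands, in the 250 bases before each gene start (RefSeq, GRCh38.p14). It was found in 6 of 20 members with a promoter, beside 0.138% of the promoters of kept genes and 0.0806% of all 27305. The members with it included HSPA5, XBP1, CALR, CANX, CRELD2 and HSP90B1, none of which was called, and PDIA6, DERL2 and DNAJC3 had no match in this window. Below are the last 150 bases before the start of 2 members that carry the element and had log2 ratios of different sign, neither past 1.5-fold, with the element in capitals. CRELD2 (chr22:49918484-49918633, plus strand) was at 0.37 and 0.38, and HSP90B1 (chr12:103930260-103930409, plus strand) at -0.26 and -0.29.
CRELD2: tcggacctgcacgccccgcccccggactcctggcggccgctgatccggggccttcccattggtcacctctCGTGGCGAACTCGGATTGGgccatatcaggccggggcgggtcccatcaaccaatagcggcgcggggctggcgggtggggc
HSP90B1: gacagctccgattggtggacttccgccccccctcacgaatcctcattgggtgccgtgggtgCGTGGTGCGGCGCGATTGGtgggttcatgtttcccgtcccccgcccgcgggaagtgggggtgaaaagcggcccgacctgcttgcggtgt

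Metallothioneins, small proteins that bind zinc and copper, had medians of 0.54 and 0.43. All 5 kept members of the cluster on chromosome 16 were above 0 in both batches, as were 44.2% of all kept genes. Of the 5, 1 was called higher, beside 11.2% of all kept genes. MT1F was at 27.5 and 29.7 CPM in WT and 48.5 and 53.1 in SCC4 KO cells (0.81 and 0.84). MT2A was at 443 and 447 in WT and 563 in both SCC4 KO batches. MT1M (0.76 and 0.43), MT1E (0.54 and 0.45) and MT1X (0.51 and 0.21) lay between 0 and the 1.5-fold limit in batch 2. Metal response elements were searched as TGCACNC and TGCGCNC on both strands over 250 bases, and were found in 24.7% of all promoters and 35.3% of those of kept genes. The promoters of MT2A and MT1X, the only 2 members present in the promoter table, held 7 and 4 matches, and their last 150 bases before the start are shown with matches in capitals. MT2A lies at chr16:56608434-56608583 and MT1X at chr16:56682320-56682469, both on the plus strand.
MT2A: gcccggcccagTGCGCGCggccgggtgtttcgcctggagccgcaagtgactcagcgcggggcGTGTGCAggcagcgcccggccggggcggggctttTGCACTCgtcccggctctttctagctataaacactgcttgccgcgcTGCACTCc
MT1X: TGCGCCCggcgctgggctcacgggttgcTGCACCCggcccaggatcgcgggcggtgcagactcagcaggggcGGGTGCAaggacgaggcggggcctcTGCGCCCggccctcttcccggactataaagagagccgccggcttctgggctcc

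Glycolysis genes had medians of 0.25 and 0.22, with 1 of 22 higher and 0 lower. SLC16A3, the lactate exporter, was at 39.3 and 34.6 CPM in WT and 73.8 and 72.5 in SCC4 KO cells. LDHA, which makes lactate, was at 0.53 and 0.51, GPI at 0.49 and 0.46 and TPI1 at 0.42 and 0.40, while the glucose transporter SLC2A3 was at -1.61 and -0.39. Nuclear-encoded respiratory chain lists had medians between 0.04 and 0.08.

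Targets of p53, which halts the cycle or triggers death after damage, had medians of 0.14 and 0.25, with 4 of 18 higher and 0 lower. CDKN1A, the CDK inhibitor p21, was at 6.24 and 6.58 CPM in WT and 17.9 and 15.8 in SCC4 KO cells. BTG2 (1.19 and 0.87), PHLDA3 (0.81 and 1.11) and BAX (0.60 and 0.66) were the others, and MDM2, the p53 ligase, was at -0.20 and -0.15. Immediate-early genes had medians of 0.31 and 0.22, with SRF, ZFP36L1 and EGR1 higher of 15 kept and FOS at 0.31 and 0.26. The TGF-beta and BMP list (0.14 and 0.25) had 4 of 18 higher, among them the ligands BMP7 (2.70 and 3.29) and BMP2 (1.65 and 1.42) and the signal transducer SMAD5 (0.95 and 1.01), whereas the target ID3 was at -0.58 and -0.66.

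Chromatin proteins of the high mobility group and oncofetal RNA-binding genes had medians of 0.36 and 0.37, with 2 of 13 higher. HMGN2, which binds nucleosomes, was at 112 and 113 CPM in WT and 311 and 324 in SCC4 KO cells (1.48 and 1.52), and HMGB2 was at 0.80 and 0.94. HMGA1 (-0.31 and -0.34) and HMGB1 (-0.52 and -0.55) had the other sign. The DNA methyltransferase DNMT3A was at 298 and 295 in WT and 514 and 512 in SCC4 KO cells, the glycosylase TDG at 19.5 and 18.6 in WT and 43.5 and 37.8 in SCC4 KO cells, and the dioxygenase TET1 at -0.62 and -0.75. MHC class I genes had medians of 0.36 and 0.58, with HLA-B (0.62 and 0.60) among those called higher of 10 kept, and B2M, their common light chain, at -0.22 and -0.25.

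Genes of G2, mitosis and G1 control had medians below 0, in cells that had been sorted in G1. The G2 and mitosis list had medians of -0.28 and -0.20, with 9 of 49 lower and 1 higher (a mean of both medians of -0.24, and -0.04 among members of 5 UMIs or more per cell), and its summed share of UMIs was 0.416% and 0.411% in WT and 0.350% and 0.344% in SCC4 KO cells. KIF2C, a kinesin that depolymerizes microtubules, was at 124 and 125 CPM in WT and 49.9 and 48.6 in SCC4 KO cells. CDK1, the mitotic kinase, was at 106 in both WT batches and 46.2 and 48.3 in SCC4 KO cells. TACC3, MAD2L1, AURKB, SMC4, BUB1B, CKS1B and CKS2 were the other lower members, and HMGB2 the higher one. The S phase and DNA replication list had medians of -0.02 and 0.07, with 4 of 49 in each direction, and included E2F1 (-1.08 and -1.13) and TK1 (-0.95 and -1.03) lower and DTL (0.97 and 0.98) and POLD2 (0.82 in both) higher. G1 regulators had medians of -0.29 and -0.09, with 6 of 19 lower. The mean of both medians was -0.19, and it was -0.06 among members of 5 UMIs or more per cell and -0.08 with the batches summed. Among these were RB1, the retinoblastoma protein (75.3 and 73.8 CPM in WT, 34.0 and 31.8 in SCC4 KO cells), and CCND3, CDK6, CCNE1, CDK2 and E2F5. TFDP2 was the 1 member called higher, at 10.6 and 11.0 CPM in WT and 23.0 and 24.3 in SCC4 KO cells. The share of cells in each phase was not measured, and the part of a small number of cells outside G1 in these values was not tested.

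Tubulins, the subunits of microtubules, had medians of -0.25 and -0.27 with 3 of 9 lower and 0 higher. TUBA1C was at 932 and 955 CPM in WT and 447 and 445 in SCC4 KO cells, and TUBB2A (-0.82 and -0.91) and TUBG1 (-0.73 and -0.77) were the others. Intermediate filament genes had medians of -0.53 and -0.45, with VIM (202 and 204 CPM in WT, 102 and 99.9 in SCC4 KO cells), NES and KRT10 lower and KRT18 and NEFL higher of 10 kept. The actin and myosin list had medians of 0.08 and 0.07 with EZR, CNN2, CNN3 and ACTR3 higher of 33.

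ATF4 is the transcription factor of the integrated stress response, and its list had medians of -0.28 and -0.31. ATF4 was at 180 and 183 CPM in WT and 329 in both SCC4 KO batches, and ATF5 was at 1.34 and 1.26. Of 25 kept members, 2 were higher and 4 lower, beside 11.2% and 9.74% among all kept genes. The 4 lower members were CHAC1 (-1.09 and -1.51), TRIB3 (-1.13 and -0.80), CTH (-0.75 and -1.02) and ALDH18A1 (-0.68 and -0.63), of which CTH and ALDH18A1 act in amino acid synthesis. CBS (-0.58 and -0.60), MTHFD2 (-0.52 and -0.57) and PSAT1 (-0.47 and -0.50) lay in the same direction below 1.5-fold, whereas PHGDH was at 0.54 and 0.56. ATF4 RNA was thus higher while the median of the list was below 0, with members in both directions.

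**Figure D5:**
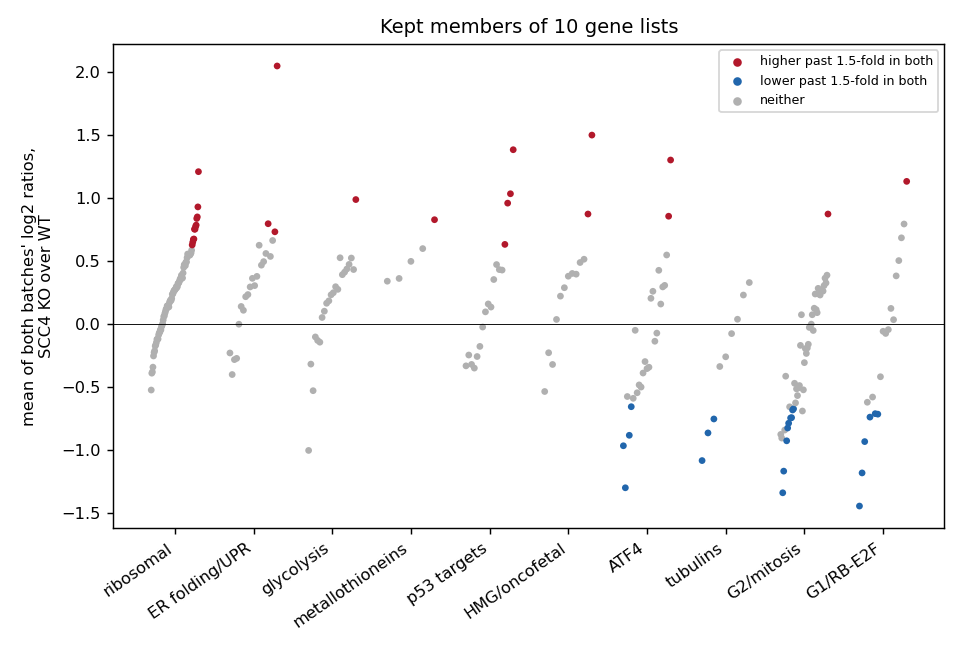
Each point is a kept member of 1 of 10 gene lists, placed by the mean of its log2 ratios in both batches, with members called higher in red, called lower in blue and neither in grey. Ribosomal protein genes run to 1.21 (RPL3), and called members of the G2 and mitosis list are mostly lower.

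Developmental and immune genes had members in both directions. HOXB9 (2.05 and 2.10) and HOXA9 (1.11 and 1.13) were higher and HOXC6 (-2.49 and -1.66) and HOXC8 (-0.68 and -0.76) lower of 13 kept HOX genes. In the WNT list, FZD7, WNT5B and CTNNB1 (59.2 and 58.8 CPM in WT, 136 and 130 in SCC4 KO cells) were higher and SFRP1, DVL2 and TCF7L2 lower. Of the interferon-stimulated genes, IFI6 (1.67 and 1.21) was among those higher and OAS3 (-1.83 and -1.84), HERC5 and PARP9 lower of 13. SNRPB2, a component of the U2 snRNP, was at 1007 and 1051 CPM in WT and 301 and 297 in SCC4 KO cells, although the splicing factor list had medians of 0.01 and -0.01.

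Genes listed as markers of HEK293T cells, the other line of the series, were examined as a check on cell identity. Of 5 kept markers, HOXB9, LHX1 (1.68 and 1.02), PAX2 (0.86 and 0.66) and NEFL were higher in SCC4 KO cells and LIN28B was at -0.33 and -0.12. NEFL had no UMI in WT, but HOXB9 was read in 43.2%, LHX1 in 57.4%, PAX2 in 79.7% and LIN28B in 87.2% of WT cells. NEFM, the marker that was not kept, had no UMI in WT and 6 and 9 UMIs in the SCC4 KO batches. Most of the kept markers were thus present in WT eHAP1 cells, so presence alone could not tell the lines apart. Their levels in HEK293T were not compared. A second set was therefore formed from the files: 13 genes with more than 40 CPM in HEK293T LAST-seq cells and less than 1 in the 2 WT sums together. Their median was 55.9 CPM in HEK293T and 0.155 and 0.343 in SCC4 KO cells. The highest were TCEAL9, at 205 CPM in HEK293T and 0 in both SCC4 KO batches, and UBB, at 198 in HEK293T and 0.155 and 0.343 in SCC4 KO cells. The highest level in SCC4 KO cells was that of PLXNA4, at 43.6 in HEK293T, 0.155 in SCC4 KO batch 1 and 10.2 in batch 2.

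Chromosome medians lay near 0. Over the 23 chromosomes with at least 50 kept genes, medians ranged from -0.10 to 0.08 in batch 1 and from -0.03 to 0.13 in batch 2. In windows of 20 Mb with at least 15 kept genes, 154 in all, the highest median was 0.49 and 0.61, on chromosome 3 from 60 to 80 Mb, where 10 of 21 genes were higher and 1 lower. They included PPP4R2 (37.2 CPM in WT and 77.9 in SCC4 KO cells of batch 2), SLC25A26 (0.91 and 1.27), ROBO1 (0.74 and 1.19), SHQ1 (0.61 and 0.85), TMF1 and SAMMSON, and EIF4E3 (-1.75 and -1.06) was the lower gene. The lowest window in batch 1 was the start of chromosome 21, at -0.33 and -0.36 over 15 genes. By gene length, medians were 0.05 and 0.08 in the shortest of 4 equal sets and 0.00 and 0.05 in the longest, where 12.3% were higher and 11.2% lower. By level, the lowest of 4 equal sets had medians of -0.04 and 0.20 and the highest of -0.03 in batch 2, so the batches agreed least for the lowest genes.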

How the data were processed

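UMIs per gene and cell of eHAP1 WT and SCC4 KO cells were analysed as deposited. The authors demultiplexed with bcl2fastq v2.20, trimmed with cutadapt, aligned to GRCh38 and made the UMI counts with zUMIs, and dropped wells with few exon reads. UMI counts were summed per genotype and batch and scaled to total UMIs, and 0.5 UMI was added. Genes that averaged 1 UMI or more per cell in WT or in SCC4 KO were kept and called past 1.5-fold in both batches. Gene names came from GENCODE 44, which held 99.6% of identifiers. Depth was 6434247 to 12301326 UMIs per sum. Members and the 59 gene lists were chosen with earlier results of these data known. Named genes were MAU2 and NIPBL, the 12 largest rises and falls by the smaller batch ratio, and for each list up to 4 leading members and its key members. The windows and HEK293T genes named, and members quoted beyond this rule, were chosen after their values were seen. Alternatives used edgeR 4.0.16 and DESeq2 1.42.0. Both were also run on simulated data of independent sums, which do not hold the agreement below counting noise seen between these batches. The BASiCS test of the study was not run. Calculations used Python 3.11.15 and R 4.3.3.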

Additional observations from a re-analysis of the deposited data

How the results depend on the processing

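With each batch alone, 1536 to 1762 genes were higher and 1269 to 1698 lower, beside 1100 and 954 in both. At 2-fold there were 364 and 357, with genes that averaged 0.1 UMI or more per cell 2401 and 2071, and with 5 UMIs or more 356 and 399. At an adjusted p of 0.05 (Benjamini-Hochberg), edgeR's quasi-likelihood test on the 4 sums called 2264 higher and 2511 lower, with the replicate block 2405 and 2686, and DESeq2 1989 and 2118. These p-values treat the batches as replicates of a genotype, which their agreement below counting noise does not allow, so they are given as counts only. The genotypes share batch numbers in the cell names only, and no label says that a number marks a shared day or culture. The largest departure of a chromosome's median from that of all genes was -0.09, with 0.0836 at the minimum of 0.1 UMI, -0.17 at 5 UMIs and -0.14 with the batches summed. The MAU2 log2 ratio was -1.51 to -2.26 with 1 batch left out, beside -1.88. Summing both batches to 1 sample per genotype, an alternative chosen after seeing the data, gave 1622 higher and 1346 lower. Other scalings, a pseudocount of 5, equal weight per cell and leaving out 5 WT cells of extreme depth kept the counts within 1.5 times. Of 14 lists with a mean of both medians past 0.2, none changed sign in any alternative that gave a value, but 4 moved by over 1.5 times. Metallothioneins, interferon-stimulated genes and HEK293T markers had no value at the minimum of 5 UMIs. At 5 UMIs, G2 and mitosis went from -0.24 to -0.04, immediate-early genes from 0.27 to 0.09 and intermediate filaments from -0.49 to -0.98. Interferon-stimulated genes went from 0.28 to 0.17 in batch 2 alone and to 0.13 with the batches summed. TMM scaling gave 999 higher and 1054 lower. Low counts limit genes near 1 UMI per cell, where the batches differed most.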

Other observations

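Chromatin regulators and extracellular matrix genes held members in both directions around medians near 0. In the Polycomb and Trithorax list, 3 of 31 kept members were lower, among them PCGF3 (110 and 107 CPM in WT, 40.7 and 45.9 in SCC4 KO cells) and KMT2A (log2 ratios of -1.05 and -0.93), and 3 were higher, among them CBX7 (0.93 and 1.17). COL1A1, a fibrillar collagen chain, was at 3.66 and 4.39 CPM in WT and higher in SCC4 KO cells (log2 ratios of 1.69 and 1.88), and COL6A2 was at 0.66 and 0.91. Of 10 kept imprinted genes, UBE3A (252 and 260 CPM in WT, 142 and 141 in SCC4 KO cells) and IGF2R were lower and 0 were higher. In ATP synthase, ATP5PD (34.2 and 34.5 CPM in WT, 72.0 and 68.8 in SCC4 KO cells), ATP5ME and ATP5F1A were higher of 19 and ATP5MC3 was at -0.49 and -0.52. Zinc finger genes had medians of 0.05 and 0.12 on chromosome 19 (65 kept) and 0.06 and 0.10 elsewhere (113 kept). None of the 53 clustered protocadherin genes reached the minimum level.

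Some genes were called alike in both batches although their level differed between the SCC4 KO batches. DNAJC28 was at 2.04 and 1.14 CPM in WT and at 218 and 15.4 in SCC4 KO cells. CFAP47 was at 0 in WT and at 0.466 and 13.02 CPM in SCC4 KO cells. NLRC5 was at 3.53 and 0.813 CPM in WT and at 2.95 and 15.7 in SCC4 KO cells and was not called.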
